A study of Homo sapiens with 12 samples.

Results

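The genes described here encode the proteasome and its close helpers: every symbol in the count files that starts with PSMA, PSMB, PSMC, PSMD, PSME, PSMF or PSMG and goes on with digits only, which leaves out pseudogenes. That rule found 49 of 56832 gene names. Of these, 5 are the immunoproteasome genes PSMB8, PSMB9, PSMB10, PSME1 and PSME2, and 44 are constitutive or other members. They were measured by RNA sequencing in MDA-MB-468, a human breast cancer line of basal type, in 12 libraries that make up 4 groups of 3. The groups are cells stably carrying pCDH-TRB, a vector for thyroid hormone receptor beta, given 10 nM T3 (TRB T3); the same cells given vehicle, NaOH (TRB vehicle); cells carrying the empty vector pCDH-EV given 10 nM T3 (EV T3); and those cells given vehicle (EV vehicle). T3 is the active thyroid hormone, and the treatment lasted 24 hours. All groups had first spent 24 hours without hormone, in medium free of phenol red with charcoal stripped serum. The labels give 1 cell population per vector, so receptor and population cannot be told apart when TRB and EV libraries are compared. They leave unsaid whether replicate libraries are separate cultures, and the spread that the p-values measure may be technical.

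The proteasome is the protease that degrades ubiquitin-tagged proteins. Its 20S core is a barrel of alpha and beta rings in which the beta subunits encoded by PSMB6, PSMB7 and PSMB5 cut peptide bonds, and its 19S particle recognises, unfolds and feeds in the tagged protein. Interferon gamma is known to induce alternative catalytic subunits, encoded by PSMB9, PSMB10 and PSMB8, which take the places of the PSMB6, PSMB7 and PSMB5 products in newly built cores. It also induces the PA28 alpha and beta activator encoded by PSME1 and PSME2. Cores with these parts are called immunoproteasomes, and they yield peptides that suit presentation on MHC class I molecules.

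The 5 immunoproteasome genes are protein-coding and lie, in GRCh38 by GENCODE 29, at chr6:32840717-32844703 (PSMB8, minus strand), chr6:32844136-32859585 (PSMB9, plus strand), chr16:67934502-67937087 (PSMB10, minus strand), chr14:24136158-24138967 (PSME1, plus strand) and chr14:24143362-24147570 (PSME2, minus strand). They are known targets of interferon regulatory factors, so their promoters were searched for the element these factors bind. RefSeq windows of GRCh38.p14, from 250 bases before to 50 bases after a gene's annotated start, were at hand for 42 of the 49 members; some genes have several starts, and the 5 immunoproteasome genes have 6 windows because PSMB8 has 2. Genes are counted here when any of their windows holds a match. A search on both strands for GAAANNGAAA, a core form of that element, found it in 4 of the 5 immunoproteasome genes, in 3 of 37 other members with a window (PSMA4, PSMB4 and PSMG4) and in 4.38% of the 27305 genes with a window (3.57% of 35116 windows). In PSMB8, PSMB10, PSME1 and PSME2 the match was the same 10 bases, GAAAGCGAAA, on one strand or the other. That exact form, looked for after the windows had been seen, stands in 34 genes, which is 0.125% of those with a window, and PSMG4, an assembly chaperone of the core, is the 1 other member that has it. The windows are printed 5′ to 3′ on the gene's own strand because they carry the feature that these members share; capitals mark the match, TTTCGCTTTC being its other strand. PSMB9 and TAP1 are divergent genes whose RefSeq starts lie 488 bases apart, counted from the TAP1 start nearer to PSMB9. The RefSeq start of PSMB9 is at chr6:32854192, inside the longer GENCODE span given above, which begins at 32844136. The PSMB9 window held no match, while the TAP1 window nearer to it held 2 overlapping ones at chr6:32853823-32853838, which ends 354 bases from the PSMB9 start. The second windows of PSMB8 (chr6:32844630-32844929) and TAP1 (chr6:32852712-32853011) held none and are not printed.
PSMB8, chr6:32843998-32844297, minus strand: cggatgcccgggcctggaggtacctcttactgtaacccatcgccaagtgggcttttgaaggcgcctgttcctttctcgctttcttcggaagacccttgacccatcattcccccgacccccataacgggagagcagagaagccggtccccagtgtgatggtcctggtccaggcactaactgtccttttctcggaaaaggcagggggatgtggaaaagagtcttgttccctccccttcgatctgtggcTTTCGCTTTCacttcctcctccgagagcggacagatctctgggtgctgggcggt
PSMB10, chr16:67936801-67937100, minus strand: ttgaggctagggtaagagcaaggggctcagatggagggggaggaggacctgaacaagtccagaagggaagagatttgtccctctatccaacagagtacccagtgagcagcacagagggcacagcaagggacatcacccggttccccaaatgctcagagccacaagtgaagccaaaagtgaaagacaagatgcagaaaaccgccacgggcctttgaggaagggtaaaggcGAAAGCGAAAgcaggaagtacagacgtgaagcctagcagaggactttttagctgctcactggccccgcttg
PSME1, chr14:24135944-24136243, plus strand: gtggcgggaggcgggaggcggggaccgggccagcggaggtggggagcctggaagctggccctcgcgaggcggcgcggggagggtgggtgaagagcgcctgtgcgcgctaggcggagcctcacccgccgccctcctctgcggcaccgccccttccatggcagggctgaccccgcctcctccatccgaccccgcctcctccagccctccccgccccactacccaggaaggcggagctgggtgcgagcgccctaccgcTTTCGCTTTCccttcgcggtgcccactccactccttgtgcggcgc
PSME2, chr14:24146561-24146860, minus strand: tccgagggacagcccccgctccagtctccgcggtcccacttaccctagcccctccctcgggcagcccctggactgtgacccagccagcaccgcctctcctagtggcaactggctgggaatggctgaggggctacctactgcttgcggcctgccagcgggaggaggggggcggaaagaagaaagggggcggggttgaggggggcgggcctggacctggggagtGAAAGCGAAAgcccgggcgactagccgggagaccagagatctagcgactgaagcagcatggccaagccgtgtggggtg
PSMG4, chr6:3258697-3258996, plus strand: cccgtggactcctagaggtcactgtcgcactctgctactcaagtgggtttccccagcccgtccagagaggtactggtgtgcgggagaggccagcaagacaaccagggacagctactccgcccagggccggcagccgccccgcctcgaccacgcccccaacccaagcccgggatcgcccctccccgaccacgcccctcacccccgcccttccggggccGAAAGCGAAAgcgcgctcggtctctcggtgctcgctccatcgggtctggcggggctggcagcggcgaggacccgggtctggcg
PSMB9, chr6:32853942-32854241, plus strand: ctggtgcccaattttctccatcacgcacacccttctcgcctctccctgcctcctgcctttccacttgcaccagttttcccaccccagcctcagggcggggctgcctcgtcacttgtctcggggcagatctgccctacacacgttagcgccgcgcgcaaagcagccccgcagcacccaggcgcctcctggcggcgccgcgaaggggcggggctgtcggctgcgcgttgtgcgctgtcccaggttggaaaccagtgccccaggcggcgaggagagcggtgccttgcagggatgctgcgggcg
TAP1, chr6:32853655-32853954, minus strand: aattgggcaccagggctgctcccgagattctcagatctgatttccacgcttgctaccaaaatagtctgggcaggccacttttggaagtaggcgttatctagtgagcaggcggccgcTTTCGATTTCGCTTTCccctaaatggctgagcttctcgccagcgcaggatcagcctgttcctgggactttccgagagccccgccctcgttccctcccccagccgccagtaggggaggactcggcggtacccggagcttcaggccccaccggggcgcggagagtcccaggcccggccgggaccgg

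Other motifs were searched in the same windows. The interferon gamma activated site TTCNNNGAA was in the printed PSMB8 window, in 7 of 37 other members and in 9.38% of all genes with a window. AGGTCA, the hexamer that thyroid hormone receptors bind, matched 6 of the 37 other members and 16.5% of all genes, and none of the 5 immunoproteasome genes in their 6 windows. The antioxidant response form TGACNNNGC, near the sequence that NFE2L1 binds at proteasome genes, was in 3 immunoproteasome genes, 12 other members and 16.1% of all genes. No match says only that these letters are not in the window, and a match is a description of the sequence.

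Gene counts came to 11335783 to 11915181 in the TRB T3 libraries, 7311623 to 8904361 in the TRB vehicle libraries, 10323437 to 11955825 in the EV T3 libraries and 4241863 to 7851876 in the EV vehicle libraries, so that depth moved with treatment and the T3 and vehicle ranges do not meet. The mitochondrial ribosomal RNA MT-RNR1 also moved with treatment, at 103 to 151 CPM (counts scaled to the library total by TMM factors) in TRB T3 and 1796 to 4772 CPM in TRB vehicle, and at 58.3 to 95.8 CPM in EV T3 and 822 to 8046 CPM in EV vehicle. The part of this RNA in the T3 results was not tested; for depth, values of the immunoproteasome genes with all libraries thinned to equal depth are given below. THRB, the gene carried by the vector, averaged 329 ± 16.7 CPM in TRB T3, 140 ± 4.15 CPM in TRB vehicle, 38.5 ± 1.23 CPM in EV T3 and 43.4 ± 0.824 CPM in EV vehicle (SD, n = 3 each). It was higher in TRB than in EV libraries, which goes with the vectors that the labels name. Within TRB cells THRB was also higher with T3, which the labels do not state, and the part of this rise in the T3 results was not tested. All 8 epithelial and basal markers were expressed, with summed levels of 7260 to 7710 CPM in TRB T3, 8570 to 8770 CPM in TRB vehicle, 9770 to 10200 CPM in EV T3 and 10200 to 10600 CPM in EV vehicle. EGFR makes up most of these sums, and the basal keratin genes moved with T3 in TRB cells. KRT5 averaged 224 CPM in TRB T3, 900 CPM in TRB vehicle, 999 CPM in EV T3 and 1158 CPM in EV vehicle, with log2 fold changes for T3 of -2.01 in TRB cells (adjusted p = 4.30e-30, edgeR) and -0.21 in EV cells (adjusted p = 0.00526, edgeR). In TRB cells KRT6A (-2.07), KRT17 (-1.61) and EPCAM (-0.19) also fell, and CDH1 rose (0.34). Thus 4 of the 8 markers were lower and 1 higher in the contrast in which the immunoproteasome genes rose, beside 21.9% and 22.4% of all genes. In TRB against EV cells 5 of the 8 were lower and 0 higher without T3, beside 7.4% and 7.86% of all genes. With T3 7 were lower and 1 higher, beside 19.7% and 21%. The part of these markers in the immunoproteasome results was not tested. Leukocytes also use the immunoproteasome, so their markers matter here. CD14 was at 181 to 194 CPM in TRB T3 and 17.5 to 21.7 CPM in TRB vehicle, and at 49.7 to 52.2 CPM in EV T3 and 28.0 to 32.7 CPM in EV vehicle. ITGAM was at 2.23 to 3.05 CPM in TRB T3, 0.410 to 0.657 CPM in TRB vehicle, 0.332 to 0.675 CPM in EV T3 and 0.255 to 0.783 CPM in EV vehicle. CD14 was called higher with T3 in TRB cells, beside 22.4% of all genes. ITGAM had 26, 34 and 33 counts in the TRB T3 libraries and 2 to 7 counts in the libraries of the other groups. It passed the count filter only through TRB T3, so its call there is not read as a result. The part of CD14 and ITGAM in the T3 results was not tested. The other 8 leukocyte markers summed to between 0.131 and 1.22 CPM in all libraries, with LYZ at 0 in every one. Fibroblast markers other than COL1A1 summed to at most 0.262 CPM. COL1A1 was at 19.7 to 21.1 CPM in TRB T3 and 16.4 to 17.7 CPM in TRB vehicle. In EV T3 it was at 14.6 to 15.4 CPM, and in EV vehicle at 15.7 to 16.4 CPM. It was called higher with T3 in TRB cells (log2 fold change 0.26) and in TRB over EV cells with T3 (0.44). Of all genes 22.4% and 21% were called higher there. COL1A1 was not called for T3 in EV cells or for TRB against EV without T3. The part of COL1A1 in the T3 results was not tested.

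Of the 49 members, 46 had enough counts to be tested. PSMB11, the thymus-specific catalytic subunit, had 2 counts in all, PSMA8, the testis-specific alpha subunit, had 6, and PSMD15 had 0. Per kilobase of transcript, the mean over all libraries ran from 3.04 CPM for PSMD9 to 208 CPM for PSMB4 among the tested members. PSMB8 and PSME1 were, at 106 and 107 CPM per kilobase, among the more abundant; PSMB9 stood at 40.3 and PSMB10 at 9.49. Of PSMB10's exonic bases 34.8% are shared with another annotated gene on the same strand, AC040162.1, and exons of PSMB8 and PSMB9 overlap on opposite strands. The sources do not state the strand setting of the counting, and reads in such overlaps cannot be told apart. PSMC1, for which 13 pseudogenes carry the name, and PSMA6, with 4, are also uncertain.

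T3 in TRB cells raised all 5 immunoproteasome genes, by 1.43-fold to 2.11-fold. The 3 constitutive catalytic genes they pair with did not pass the test, and all other members lay between -0.23 and 0.38 on the log2 scale. In bulk RNA, more transcript per cell and more cells with the transcript cannot be told apart. PSMB9, the interferon-inducible counterpart of PSMB6, had 41.6, 40.3 and 36.1 CPM in TRB T3 libraries, against 20.5, 18.9 and 16.4 CPM in TRB vehicle libraries. All TRB T3 values lay above all vehicle values. The log2 fold change was 1.08 ± 0.09 (edgeR's quasi-likelihood test, adjusted p = 1.29e-16); here and below, the error of a log2 fold change is its SE and that of a mean level its SD.

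PSMB10, the counterpart of PSMB7, was the least abundant of the 3 and changed by a like amount. Its libraries held 16.4, 16.1 and 15.6 CPM in TRB T3, against 7.23, 7.84 and 7.79 CPM in TRB vehicle, with no overlap (log2 fold change 1.07 ± 0.12, adjusted p = 8.98e-12, edgeR). PSMB8, the counterpart of PSMB5, had 147, 147 and 136 CPM in TRB T3, against 94.2, 93.3 and 81.7 CPM in TRB vehicle. These too were apart, with a log2 fold change of 0.67 ± 0.05 (edgeR, adjusted p = 5.75e-17).

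The PA28 activator genes followed at a smaller fold. PSME1, the alpha subunit, had 119, 122 and 124 CPM in TRB T3, against 89.3, 84.9 and 81.2 CPM in TRB vehicle, a log2 fold change of 0.52 ± 0.05 (edgeR, adjusted p = 7.88e-15). PSME2, the beta subunit, had 132, 126 and 127 CPM in TRB T3, against 83.5, 90.0 and 84.0 CPM in TRB vehicle, a log2 fold change of 0.58 ± 0.05 (edgeR, adjusted p = 2.78e-17). In both genes every TRB T3 library was above every TRB vehicle library. With all libraries thinned to 4241863 counts the 5 log2 fold changes ran from 0.49 to 1.08, and with offsets for GC content from 0.47 to 1.04.

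**Figure D1:**
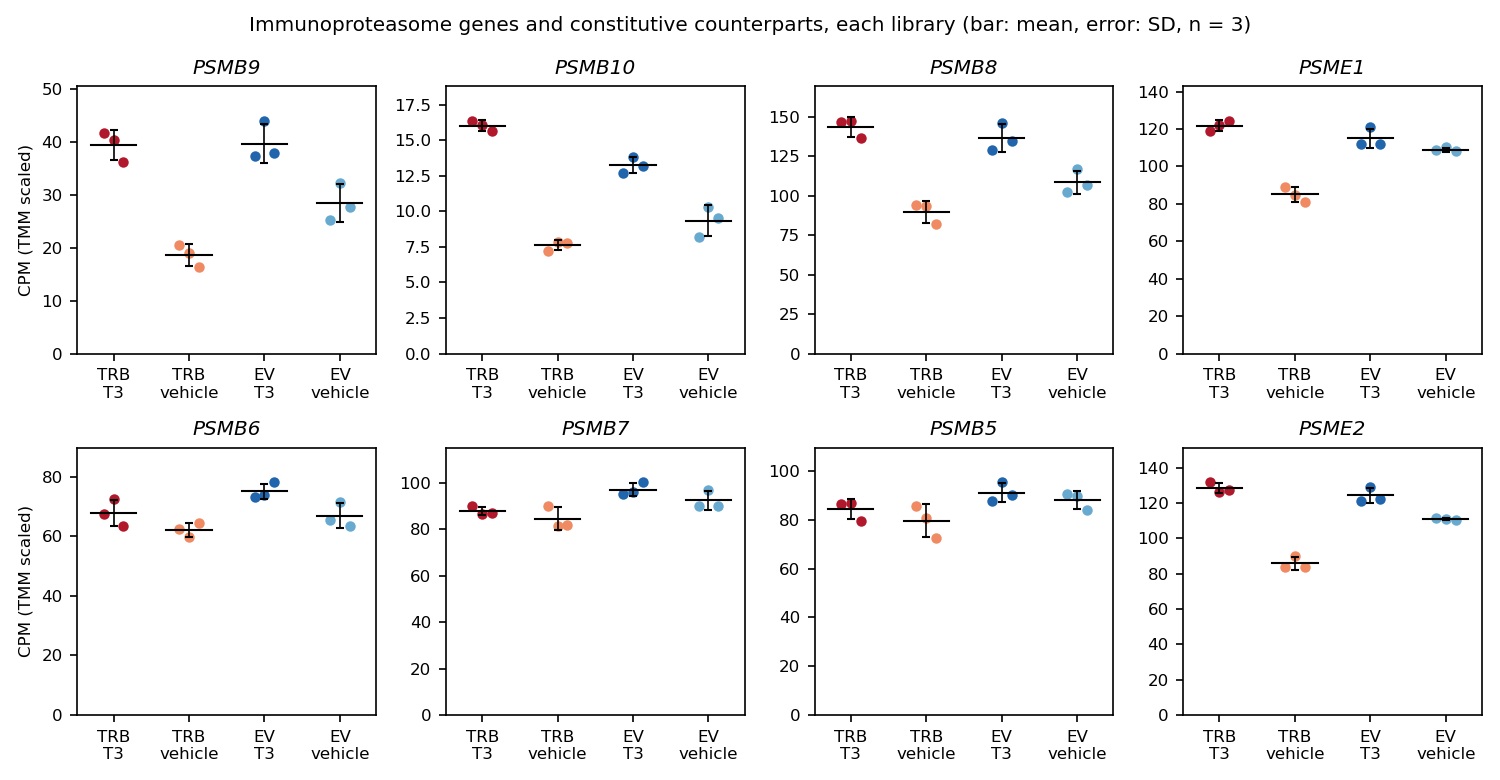
Levels of the 5 immunoproteasome genes and the 3 constitutive catalytic genes in each library, in CPM scaled by TMM factors, for TRB T3, TRB vehicle, EV T3 and EV vehicle cells. Points are libraries, long bars means and error bars SD (n = 3); PSMB9 averaged 39.3 CPM in TRB T3 and 18.6 CPM in TRB vehicle, while PSMB5, PSMB6 and PSMB7 overlap between those groups.

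The constitutive catalytic genes give the contrast. PSMB6, which encodes the caspase-like beta 1 subunit, had 67.4, 72.4 and 63.6 CPM in TRB T3 and 62.4, 59.6 and 64.4 CPM in TRB vehicle. PSMB7, the trypsin-like beta 2 subunit, had 89.9, 86.4 and 87.1 CPM in TRB T3 and 90.0, 81.2 and 82.0 CPM in TRB vehicle. PSMB5, the chymotrypsin-like beta 5 subunit, had 86.4, 87.0 and 79.6 CPM in TRB T3 and 85.7, 80.9 and 72.4 CPM in TRB vehicle. In each of the 3 the groups overlapped. PSMB6 stood nearest to the threshold (adjusted p = 0.064, edgeR) and was called higher in 3 of 15 alternatives. These were protein-coding genes only and the fits without TRB vehicle replicate 3 or TRB T3 replicate 3. The 95% intervals of their log2 fold changes, -0.0050 to 0.26 for PSMB6, -0.06 to 0.18 for PSMB7 and -0.04 to 0.20 for PSMB5, all end below 0.41, the lowest interval bound among the 5 immunoproteasome genes (PSME1).

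Over all 46 tested members, 18 were called higher with T3 in TRB cells and 5 lower, which is 39.1% and 10.9%. In the same comparison 22.4% of the 14549 genes tested were called higher and 21.9% lower. Leaving out the immunoproteasome genes, 13 of 41 members (31.7%) were higher and 5 (12.2%) lower, with a median log2 fold change of 0.07 and a range of -0.23 to 0.38; the median over all genes was -0.0017 and that of the 5 immunoproteasome genes 0.67. The highest of the 41 were PSMA5, an alpha ring subunit, at 0.38 ± 0.06 (adjusted p = 1.10e-05, edgeR) and PSMG4 at 0.36 ± 0.08 (adjusted p = 1.08e-04, edgeR). Of the alpha ring 3 of 7 tested genes were higher, of the 6 ATPases of the 19S base 2, of its 3 non-ATPase subunits 2, and of the 8 lid subunits 3 with 1 lower.

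The members called lower were PSMD8, PSMB3, PSME4, PSMG1 and PSMF1. PSMD8, a lid subunit, fell to 223, 220 and 201 CPM in TRB T3, against 253, 245 and 259 CPM in TRB vehicle, a log2 fold change of -0.23 ± 0.04 (adjusted p = 1.07e-06, edgeR). PSMB3, a beta ring subunit without catalytic activity, had 78.7, 79.6 and 72.2 CPM in TRB T3 and 87.0, 84.4 and 83.1 CPM in TRB vehicle (-0.14 ± 0.05, adjusted p = 0.0224, edgeR). PSME4, the nuclear PA200 activator, had 225, 221 and 224 CPM in TRB T3 and 245, 250 and 236 CPM in TRB vehicle (-0.13 ± 0.04, adjusted p = 0.00843, edgeR). In these 3 genes the groups did not overlap; over all members, 4 were apart with T3 lower and 21 with T3 higher, beside 25.8% and 26.1% of all genes. PSME3, which encodes the PA28 gamma activator of the nucleus and is not an interferon target like its relatives, had 156, 151 and 149 CPM in TRB T3 and 140, 143 and 129 CPM in TRB vehicle (0.15 ± 0.04, adjusted p = 0.00412, edgeR). The count of 5 lower members is 2 by DESeq2, 2 with no filter on low counts, 3 at equal depth, and 2, 3 and 1 without TRB T3 replicate 3, TRB vehicle replicate 1 and TRB vehicle replicate 2. PSMF1, an inhibitor of the core in vitro, stood at -0.12 (adjusted p = 0.022, edgeR) and lost its call in 5 of 15 alternatives. PSMG1, a core assembly chaperone, stood at -0.12 (adjusted p = 0.0475, edgeR), its groups overlapped, and its call was lost in 9 of 15 alternatives, the replicate block among them. PSMB3 lost its call in each of the 3 cases with a library left out, PSME4 without TRB vehicle replicate 2, and PSME3 without TRB vehicle replicate 3. Of all 23 calls 12 held in every alternative, among them the 5 immunoproteasome genes, PSMA5, PSMG4 and PSMD8.

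**Figure D2:**
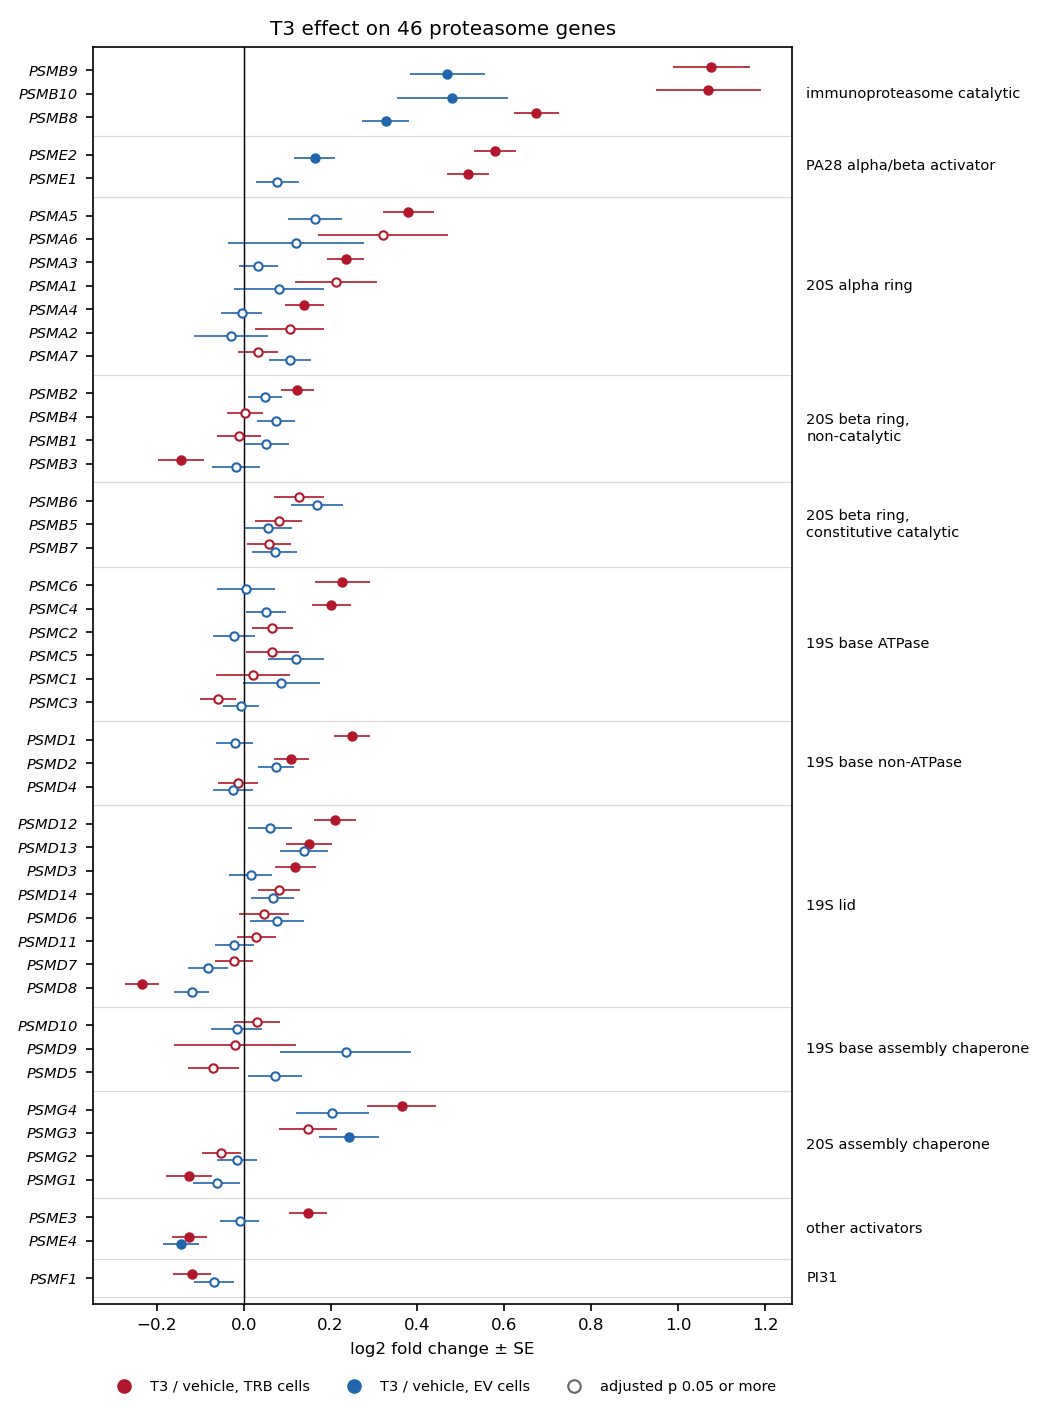
Log2 fold change of T3 over vehicle with its SE (horizontal axis) for the 46 tested members, in TRB cells and in EV cells, grouped by their place in the proteasome; filled points passed an adjusted p of 0.05. The 5 immunoproteasome genes at the top lie at 0.52 to 1.08 in TRB cells, while no other member exceeds 0.38.

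In EV cells, which carry no added receptor, T3 moved the same catalytic genes by less. PSMB9 had 37.2, 43.9 and 37.8 CPM in EV T3, against 25.3, 32.2 and 27.6 CPM in EV vehicle (log2 fold change 0.47 ± 0.09, adjusted p = 1.16e-04, edgeR). PSMB8 had 129, 146 and 134 CPM in EV T3, against 102, 117 and 106 CPM in EV vehicle (0.33 ± 0.05, adjusted p = 1.92e-05, edgeR). Both genes were apart between groups, and both calls held in every alternative. PSMB10 had 12.7, 13.8 and 13.2 CPM in EV T3, against 8.18, 10.3 and 9.55 CPM in EV vehicle (0.48 ± 0.13, adjusted p = 0.0137, edgeR). PSME2 had 121, 129 and 122 CPM in EV T3, against 111, 111 and 110 CPM in EV vehicle (0.16 ± 0.05, adjusted p = 0.031, edgeR). PSME1 did not pass, at 112, 121 and 112 CPM in EV T3 and 109, 110 and 108 CPM in EV vehicle, with a 95% interval of -0.04 to 0.19 for the log2 fold change. In all 5 genes, PSME1 included, the EV T3 libraries lay above the EV vehicle libraries, beside 10.4% of all genes.

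In all, 10 members were apart between the EV groups with T3 higher and 4 with T3 lower, beside 10.4% and 10.2% of all genes. Altogether 5 members (10.9%) were called higher with T3 in EV cells and 1 (2.17%) lower, while 2.84% of all genes were higher and 1.7% lower. Outside the immunoproteasome the calls were PSMG3, a core assembly chaperone, at 0.24 ± 0.07 (adjusted p = 0.0227, edgeR), and PSME4, which had 219, 231 and 237 CPM in EV T3 and 250, 239 and 269 CPM in EV vehicle (-0.14 ± 0.04, adjusted p = 0.0279, edgeR). The constitutive catalytic genes had 73.2, 73.8 and 78.0 CPM (PSMB6), 95.1, 95.9 and 100 CPM (PSMB7) and 87.7, 95.3 and 90.1 CPM (PSMB5) in EV T3. Their EV vehicle values were 65.5, 71.5 and 63.4 CPM for PSMB6, 90.0, 97.0 and 89.9 CPM for PSMB7, and 90.5, 89.8 and 84.0 CPM for PSMB5. None of these 3 passed the test, although the 2 PSMB6 groups did not overlap (0.17 ± 0.06, adjusted p = 0.0926, edgeR). PSME3 had 144, 145 and 152 CPM in EV T3 and 149, 146 and 149 CPM in EV vehicle. DESeq2 called only PSMB8 and PSMB9 higher and no member lower (2 lower at an unadjusted p below 0.05 in edgeR), and at equal depth 3 were higher. These were PSMB9 at 0.57, PSMB8 at 0.33 and PSME2 at 0.20, while PSMB10 at 0.41 (adjusted p = 0.226, edgeR) lost its call and PSME1 stood at 0.09. Left without EV T3 replicate 2, EV vehicle replicate 3 or EV vehicle replicate 1, the higher count was 2, 2 and 3, and PSMB10 and PSME2 lost their calls in each of these 3 cases. PSME2 also lost it without EV vehicle replicate 2, PSMG3 without EV T3 replicate 2 or EV vehicle replicate 3, and PSME4 without EV T3 replicate 1 or 2 or EV vehicle replicate 1 or 3.

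The T3 effect itself differed between the 2 populations for all 5 immunoproteasome genes, by the interaction term of the same fit. The log2 difference, TRB minus EV, was 0.61 ± 0.13 for PSMB9 (adjusted p = 1.12e-04), 0.59 ± 0.18 for PSMB10 (adjusted p = 0.0104), 0.44 ± 0.07 for PSME1 (adjusted p = 4.46e-07), 0.42 ± 0.07 for PSME2 (adjusted p = 9.95e-07) and 0.35 ± 0.08 for PSMB8 (adjusted p = 2.54e-04), all by edgeR. Of the 41 other members 2 passed: PSMD1, the large scaffold of the 19S base, at 0.27 ± 0.06 (adjusted p = 3.13e-04, edgeR), and PSMA3, an alpha ring subunit, at 0.20 ± 0.06 (adjusted p = 0.0102, edgeR). PSMD1 had 224, 225 and 210 CPM in TRB T3 against 189, 187 and 178 CPM in TRB vehicle, and 178, 192 and 197 CPM in EV T3 against 191, 197 and 187 CPM in EV vehicle. It was thus higher with T3 in each TRB library and overlapped between the EV groups. The differences for PSMB5, PSMB6 and PSMB7 were 0.02, -0.04 and -0.01, with 95% intervals of -0.15 to 0.20, -0.23 to 0.15 and -0.18 to 0.16. Over the 46 members 7 (15.2%) were called with a positive difference, TRB minus EV, beside 12.3% of all genes. A negative difference was called for 0 by edgeR or DESeq2, beside 11.6% of all genes (1 member at an unadjusted p below 0.05). Negative differences include genes that T3 lowered more in TRB cells. Without TRB vehicle replicate 2 the count of 7 was 11. PSMB10's difference missed the threshold by DESeq2, at equal depth and without EV vehicle replicate 2 (highest adjusted p 0.0712).

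Without T3, 4 of the 5 immunoproteasome genes were lower in TRB than in EV cells. From the libraries given above, PSMB9 averaged 18.6 ± 2.07 CPM in TRB vehicle and 28.4 ± 3.54 CPM in EV vehicle (log2 fold change -0.62 ± 0.10, adjusted p = 6.44e-06, edgeR). PSME2 averaged 85.8 ± 3.64 CPM in TRB vehicle and 111 ± 0.494 CPM in EV vehicle (-0.37 ± 0.05, adjusted p = 1.15e-07, edgeR), and PSME1 85.1 ± 4.05 CPM in TRB vehicle and 109 ± 1.09 CPM in EV vehicle (-0.36 ± 0.05, adjusted p = 3.88e-07, edgeR). PSMB8 was at 89.7 ± 6.98 CPM in TRB vehicle and 108 ± 7.38 CPM in EV vehicle (-0.28 ± 0.06, adjusted p = 4.15e-04, edgeR; SD, n = 3 for each mean). In all 5 genes the TRB vehicle libraries lay below the EV vehicle libraries, but PSMB10 (7.62 ± 0.338 CPM in TRB vehicle and 9.36 ± 1.09 CPM in EV vehicle) did not pass the test at -0.32 ± 0.15 (adjusted p = 0.162, edgeR).

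Among the 41 others, PSMC4, an ATPase of the 19S base, and PSMD11, a lid subunit, were lower at -0.19 each (SE 0.05 each; adjusted p = 0.0035 and 0.00302, edgeR), and PSMD10, the base chaperone also called gankyrin, was higher at 0.17 ± 0.06 (adjusted p = 0.0365, edgeR). In all, 6 members (13%) were lower and 1 (2.17%) higher, beside 7.4% and 7.86% of all genes, and 39 of the 46 estimates were below 0. The median log2 fold change was -0.10 over the members and -0.0005 over all genes, and most members were not called. The groups did not overlap in 14 members with TRB below and 2 with TRB above (all genes: 14.8% and 15.3%). With offsets for GC content 13 members were lower, and without TRB vehicle replicate 1 it was 10. The PSMD10 call was lost by DESeq2, with no filter, at equal depth, with GC offsets, and without TRB vehicle replicate 1 or 2 or EV vehicle replicate 1 or 3.

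With T3 in both, 4 of the 5 genes did not pass the test. PSMB9 averaged 39.3 ± 2.84 CPM in TRB T3 and 39.7 ± 3.72 CPM in EV T3, with a log2 fold change of -0.01 and a 95% interval of -0.18 to 0.15. PSMB8 (143 ± 6.21 CPM in TRB T3 and 136 ± 8.66 CPM in EV T3), PSME1 (122 ± 2.76 CPM in TRB T3 and 115 ± 5.24 CPM in EV T3) and PSME2 (128 ± 2.8 CPM in TRB T3 and 124 ± 4.33 CPM in EV T3) did not pass either. Their log2 fold changes were 0.07, 0.08 and 0.05, and the highest bound of their 95% intervals was 0.18. PSMB10 was higher in TRB T3, at 16 ± 0.373 CPM, than in EV T3, at 13.2 ± 0.557 CPM (0.27 ± 0.10, adjusted p = 0.0214, edgeR; SD, n = 3 for each mean), a call that was lost in 7 of 15 alternatives, among them DESeq2 and the fits without TRB T3 replicate 1 or 2 or EV T3 replicate 1 or 3.

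Of the 3 constitutive catalytic genes, 2 were called lower in TRB cells in this comparison. PSMB7 (-0.14 ± 0.05, adjusted p = 0.00972) and PSMB6 (-0.15 ± 0.05, adjusted p = 0.0184) passed by edgeR, and PSMB5 did not, at -0.11 ± 0.05 (adjusted p = 0.0678). Without T3 none of these genes passed, but their log2 fold changes of TRB over EV were near those with T3. They were -0.13 for PSMB7, -0.11 for PSMB6 and -0.14 for PSMB5. The lowest were the core assembly chaperones PSMG3 (-0.22 ± 0.06, adjusted p = 0.0017) and PSMG1 (-0.20 ± 0.05, adjusted p = 5.76e-04), then PSMD8 (-0.19 ± 0.04, adjusted p = 3.33e-05, edgeR for each). Beside PSMB10 the highest were PSMD10 (0.22 ± 0.05, adjusted p = 2.68e-04) and PSMD1 (0.22 ± 0.04, adjusted p = 6.47e-06). In all, 11 members (23.9%) were lower and 4 (8.7%) higher, beside 19.7% and 21% of all genes. The groups were apart in 15 members with TRB below and 4 with TRB above (all genes: 23.4% and 24.2%). With GC offsets 18 were lower. PSMB6 lost its call by DESeq2, at equal depth, and without TRB T3 replicate 3 or EV T3 replicate 3. The higher count was 2 by DESeq2, with no filter, and without TRB T3 replicate 1 or 2 or EV T3 replicate 1, and at equal depth PSMG3 was at -0.08 (adjusted p = 0.511). The comparisons with TRB T3 libraries share those libraries, so their values are not independent.

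**Figure D3:**
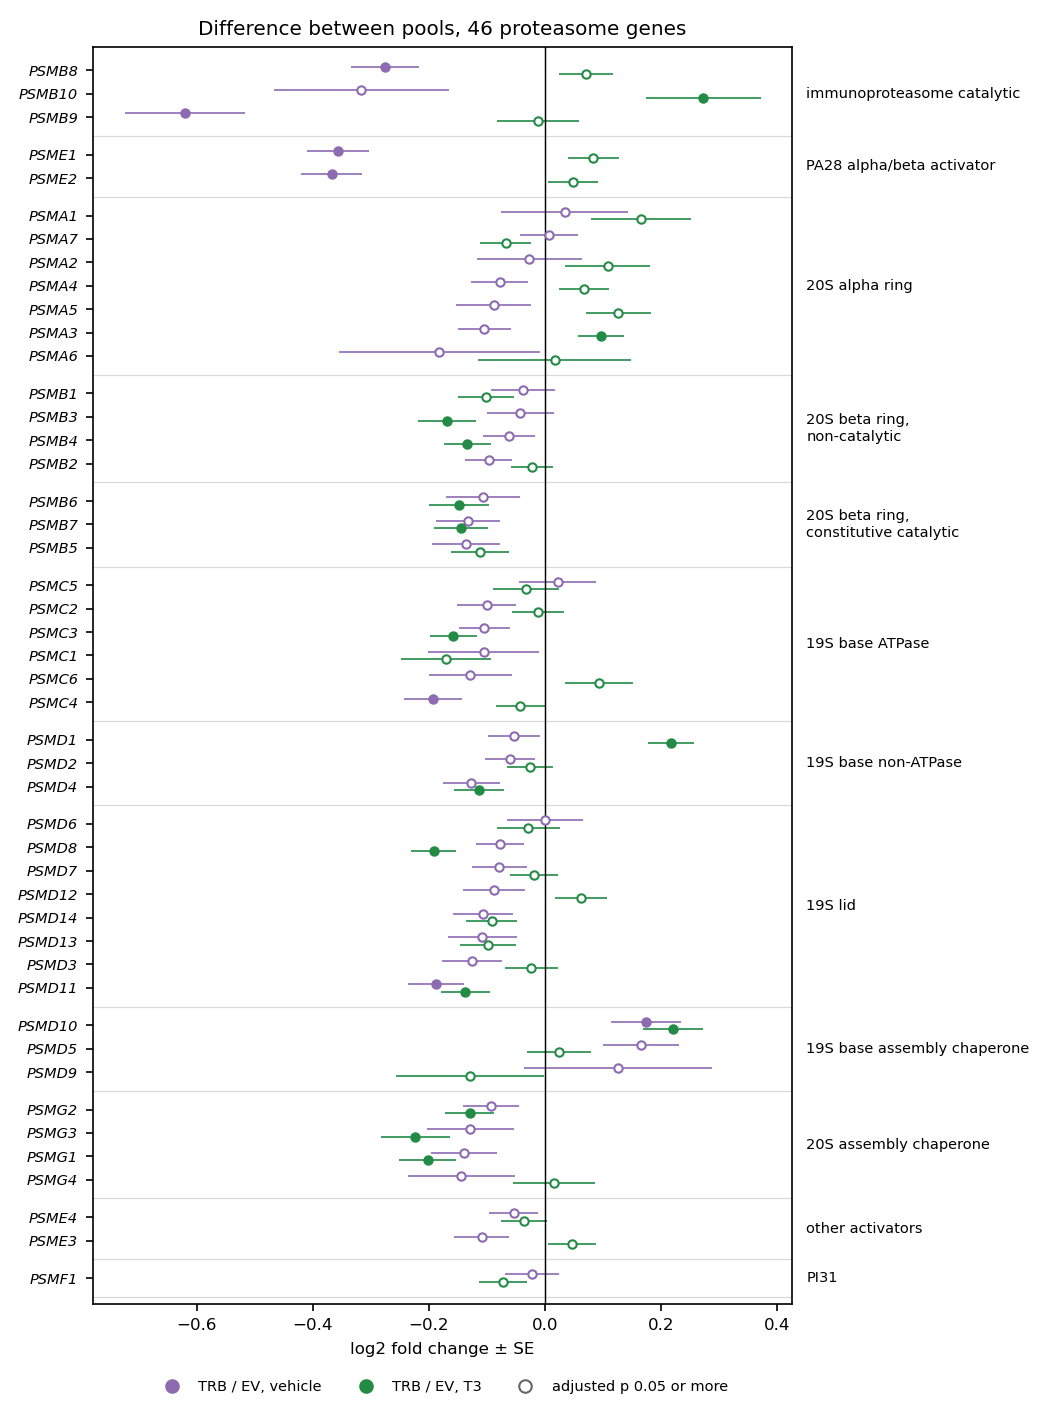
Log2 fold change of TRB over EV with its SE (horizontal axis) for the 46 tested members, without T3 (vehicle) and with T3, grouped as in the plot of T3 effects; filled points passed an adjusted p of 0.05. Without T3 the 5 immunoproteasome genes lie between -0.62 and -0.28, and with T3 between -0.01 and 0.27.

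Set against the subunit it replaces, each inducible catalytic gene took the same order of groups, TRB T3 highest and TRB vehicle lowest. For each PSMB6 read there were 0.581 ± 0.0318 PSMB9 reads in TRB T3, 0.3 ± 0.0398 in TRB vehicle, 0.530 ± 0.0584 in EV T3 and 0.424 ± 0.0339 in EV vehicle (SD, n = 3 each, here and in the next ratios). TRB T3 and EV T3 overlapped in this ratio; EV vehicle lay above TRB vehicle and below both T3 groups. PSMB10 reads per PSMB7 read were 0.183 ± 0.00338 in TRB T3, 0.0906 ± 0.00897 in TRB vehicle, 0.137 ± 0.00674 in EV T3 and 0.101 ± 0.00891 in EV vehicle. PSMB8 reads per PSMB5 read were 1.7 ± 0.0097 in TRB T3, 1.13 ± 0.027 in TRB vehicle, 1.5 ± 0.0304 in EV T3 and 1.23 ± 0.0892 in EV vehicle. For PSMB10 and PSMB8 each TRB T3 ratio was above each EV T3 ratio, whereas the vehicle groups overlapped. The PSMB8 ratio also holds the level of PSMB5. In TRB over EV with T3, PSMB8 stood at a log2 fold change of 0.07 and PSMB5 at -0.11, and neither was called.

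Per length of the principal transcripts, PSMB8 made up 66.2% ± 0.127 of the PSMB8 and PSMB5 total in TRB T3, 56.5% ± 0.59 in TRB vehicle, 63.3% ± 0.47 in EV T3 and 58.6% ± 1.8 in EV vehicle. PSMB9 made up 38.7% ± 1.29 of its pair in TRB T3, 24.6% ± 2.51 in TRB vehicle, 36.5% ± 2.51 in EV T3 and 31.6% ± 1.75 in EV vehicle. PSMB10 made up 12.8% ± 0.206 of its pair in TRB T3, 6.79% ± 0.63 in TRB vehicle, 9.9% ± 0.439 in EV T3 and 7.53% ± 0.615 in EV vehicle (SD, n = 3 each). In every group the inducible share was thus largest for PSMB8 and smallest for PSMB10. These are shares of transcript, not of protein. The PSMB10 share is uncertain, because 34.8% of the exonic bases of PSMB10 are shared with AC040162.1 on the same strand. The summed level of the 5 immunoproteasome genes was 440 to 455 CPM in TRB T3, 271 to 295 CPM in TRB vehicle, 412 to 454 CPM in EV T3 and 356 to 380 CPM in EV vehicle, while the 32 genes of the constitutive core and 19S particle summed to 3710 to 3950 CPM in TRB T3, 3540 to 3720 CPM in TRB vehicle, 3850 to 4040 CPM in EV T3 and 3840 to 3940 CPM in EV vehicle.

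**Figure D4:**
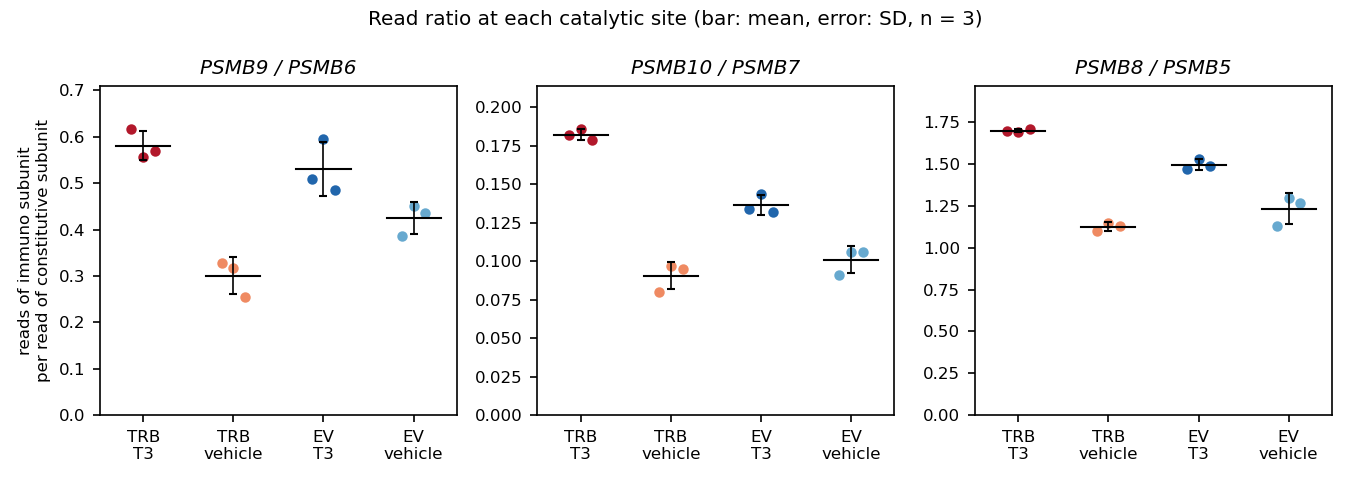
Reads of each inducible catalytic gene per read of the constitutive gene it replaces (vertical axis, a ratio without unit) in TRB T3, TRB vehicle, EV T3 and EV vehicle libraries. Points are libraries, long bars means and error bars SD (n = 3); in all 3 panels TRB T3 has the highest mean and TRB vehicle the lowest.

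The genes of the interferon gamma route to these promoters were looked at next. IRF1, the transcription factor that binds the element shown above, had 135, 135 and 131 CPM in TRB T3, 34.6, 32.0 and 34.3 CPM in TRB vehicle, 78.7, 81.3 and 77.6 CPM in EV T3 and 54.1, 59.3 and 54.0 CPM in EV vehicle. No 2 groups overlapped. The interaction was 1.49 ± 0.08 (adjusted p = 1.66e-24, edgeR), and IRF1 was lower in TRB than in EV cells without T3 (-0.74 ± 0.07, adjusted p = 3.79e-13, edgeR) but higher with it (0.76 ± 0.05, adjusted p = 8.99e-24, edgeR). NLRC5, the transactivator of MHC class I genes, had 72.1, 68.2 and 69.6 CPM in TRB T3, 35.1, 31.9 and 33.9 CPM in TRB vehicle, 52.9, 49.2 and 47.3 CPM in EV T3 and 40.9, 44.6 and 46.5 CPM in EV vehicle. T3 raised it in TRB cells (1.06 ± 0.06, adjusted p = 1.43e-23, edgeR) and it did not pass in EV cells (0.16 ± 0.07, adjusted p = 0.197, edgeR).

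Of the 11 genes of interferon gamma signalling, 3 were higher with T3 in TRB cells, IRF1 and NLRC5 among them, and 3 lower, among them the receptor subunit IFNGR1 at -0.33, beside 22.4% and 21.9% of all genes, so the shares called are near those of all genes. The list's median was -0.0026 and that of all genes -0.0017. Without T3, 5 of the 11 were lower in TRB than in EV cells, IRF1 and IFNGR1 among them, beside 7.4% of all genes. In EV cells T3 raised IRF1 and lowered IFNGR1, beside 2.84% and 1.7% of all genes.

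In TRB cells most peptide loading genes were called in the same direction as the immunoproteasome genes. Of 11 genes of MHC class I loading 9 were higher with T3 in TRB cells and 1 lower, with a median log2 fold change of 0.49, beside 22.4% and 21.9% of all genes. In EV cells 5 were higher and 6 were not called, beside 2.84% of all genes higher. The log2 difference of the T3 effects, TRB minus EV, was called positive for 9, beside 12.3% of all genes. The transporter gene TAP1, which shares its start region with PSMB9, had 119, 115 and 113 CPM in TRB T3, 64.0, 65.7 and 64.2 CPM in TRB vehicle, 120, 127 and 124 CPM in EV T3 and 102, 109 and 105 CPM in EV vehicle. As in PSMB9, TRB vehicle was the group that stood lowest: without T3 the log2 fold change of TRB over EV was -0.70 ± 0.06 (adjusted p = 1.02e-16, edgeR), and with T3 -0.10 ± 0.04 (adjusted p = 0.0597, edgeR). Its partner TAP2 changed by 0.97 ± 0.07 with T3 in TRB cells (adjusted p = 3.01e-19, edgeR) and by 0.23 ± 0.07 in EV cells (adjusted p = 0.0378, edgeR), and was lower in TRB cells without T3 (-0.75 ± 0.08, adjusted p = 3.32e-11, edgeR). Without T3, 7 of the 11 loading genes were lower in TRB cells, beside 7.4% of all genes, and with T3 5 were higher and 1 lower, beside 21% and 19.7%.

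Over the 12 libraries, the pathway genes whose log2 CPM followed the mean of the 5 immunoproteasome genes most closely were HLA-B (Pearson r = 0.981, Spearman rho = 0.993) and HLA-C (r = 0.979, rho = 0.965), which encode class I heavy chains. The libraries form 4 groups, so these values mostly describe the order of the groups, and they share depth and library with the genes compared.

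**Figure D5:**
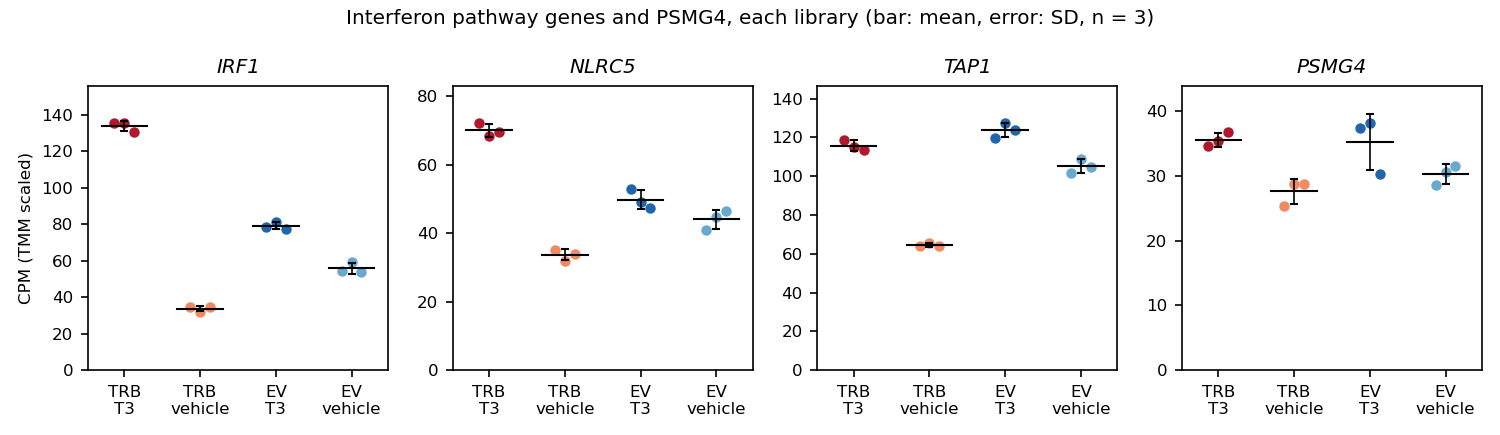
Levels of IRF1, NLRC5, TAP1 and PSMG4 in each library, in CPM scaled by TMM factors, for TRB T3, TRB vehicle, EV T3 and EV vehicle cells. Points are libraries, long bars means and error bars SD (n = 3); IRF1 spans 131 to 135 CPM in TRB T3 and 32.0 to 34.6 CPM in TRB vehicle.

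PSMG4 shares the 10-base match with the immunoproteasome genes and had 34.6, 35.4 and 36.8 CPM in TRB T3, 25.4, 28.8 and 28.7 CPM in TRB vehicle, 37.4, 38.2 and 30.4 CPM in EV T3 and 28.6, 30.7 and 31.6 CPM in EV vehicle. The TRB groups were apart, and the EV groups overlapped through EV T3 replicate 3. Unlike most of the immunoproteasome genes, PSMG4 was not called for T3 in EV cells, for the interaction or for TRB against EV without T3. POMP, the maturation factor of new cores, did not pass the test in any comparison, and stood at 75.4, 75.3 and 70.4 CPM in TRB T3 and 73.1, 70.7 and 68.2 CPM in TRB vehicle. NFE2L1, the transcription factor that restores constitutive proteasome genes when the protease is inhibited, was higher with T3 in TRB cells (0.26 ± 0.05, adjusted p = 2.21e-06, edgeR) and did not pass in EV cells (0.06 ± 0.05, adjusted p = 0.561, edgeR). Of the 8 genes of its axis 4 were higher and 1, NFE2L2, lower with T3 in TRB cells. Of 12 further partners and assembly factors 3 were higher there, ZFAND5, the ubiquitin receptor gene ADRM1 and the ligase gene UBE3C, and of 14 ubiquitin and shuttle genes 4 were higher and 4 lower. Beside the 22.4% higher and 21.9% lower of all genes, the shares of the last 2 lists called higher are near the background.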

How the data were processed

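The 12 libraries were built from Trizol-extracted RNA with a NEBNext Ultra II RNA kit, per the labels' protocols. Build hg38 and the tools CASAVA 1.7, STAR 2.7, HTSeq 0.10 and DESeq2 are named, per the submitters' processing notes; strand setting and annotation are not given in the sources used here. The authors deposited, for each library, whole-number counts per gene, and a normalized table, named a score here, whose values lie within 0.847 of the counts divided by 1 estimated factor per library; that table was used to check column names and nothing else. Alignments assigned to no gene (31.9% to 39.2%) were left out of totals and tests. Among them, alignments that were not unique also moved with treatment. They made up 14.9% to 16.0% of all alignments in TRB T3 and 17.6% to 23.3% in TRB vehicle. In EV T3 they made up 16.4% to 17.6%, and in EV vehicle 20.5% to 24.5%. The part of this share in the T3 results was not tested.

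Tests used edgeR 4.0.16 in R 4.3.3 on the counts as deposited: filterByExpr (at least 10 counts in a group's libraries, 15 in total), TMM, a robust quasi-likelihood fit with a mean per group (4 groups, residual df 8), and Benjamini-Hochberg adjustment over 14549 genes at 0.05. SE was taken as log2 fold change divided by the square root of F; intervals are at 95%. No pair of replicates agreed within sampling noise. Alternatives were RLE normalization, DESeq2 1.42.0, the compared groups alone, no filter, a filter of CPM above 1 in 3 libraries, a replicate block, counts thinned to 4241863, GC offsets (88.7% of tested genes had a GC value), protein-coding genes only and each library left out in turn. The steps were tested on simulated counts. Coordinates, overlaps and lengths come from GENCODE 29 (GRCh38), matched by symbol (53.4% of names), and promoter sequences from RefSeq (GRCh38.p14).

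The members and gene lists were chosen with earlier results of these data known. Values in each library are given for the immunoproteasome genes, PSMB5, PSMB6, PSMB7, PSME3, PSME4 and the 3 highest and 3 lowest called members for T3 in TRB cells; elsewhere the 3 highest and lowest called members are named, with at most 3 genes per pathway list (the smallest p), and IRF1, NLRC5, NFE2L1, POMP, TAP1, TAP2 and THRB whatever their values. PSMA5, PSMG4, PSMD1, PSMA3 and IFNGR1 were also given after their values were seen. Some pathway genes that these rules would name are not reported here.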

Additional observations from a re-analysis of the deposited data

Results flagged for a closer look

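For 7 of 46 tested members (15.2%) the log2 effect of T3, TRB minus EV, was called positive, and for 0 negative. Over all genes 12.3% were called positive and 11.6% negative. The test was of the difference itself, the interaction term of the edgeR fit (quasi-likelihood, adjusted over all genes tested). The log2 difference, TRB minus EV, was 0.61 for PSMB9, 0.59 for PSMB10, 0.44 for PSME1, 0.42 for PSME2 and 0.35 for PSMB8, which are all 5 immunoproteasome genes. It was 0.27 for PSMD1 and 0.20 for PSMA3, whose log2 fold changes with T3 were 0.25 and 0.24 in TRB cells and -0.02 and 0.03 in EV cells. Depth was greater in the T3 libraries of both populations; at equal depth 7 members were called, of which 6 are among these, and PSMB10 was not (adjusted p = 0.0526, edgeR).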

How the results depend on the processing

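Of 1320 values recomputed for single genes, 1179 kept their direction and their side of the threshold, 107 lost the call, 16 gained one and 18 changed sign. Of the calls on members, 12 of 23 for T3 in TRB cells, 2 of 6 for T3 in EV cells, 6 of 7 for TRB against EV without T3, 8 of 15 with T3 and 6 of 7 for the interaction held in every alternative. The cause of the changes was not tested. DESeq2 called 2 members lower for T3 in TRB cells, 2 higher and 0 lower for T3 in EV cells, 0 higher for TRB against EV without T3 and 2 higher with T3. Thinning to equal depth gave 3 lower for T3 in TRB cells, 3 higher and 0 lower in EV cells, and 0 higher for TRB against EV without T3. With no filter 2 were lower for T3 in TRB cells, 0 lower in EV cells, 0 higher for TRB against EV without T3 and 2 higher with T3. GC offsets gave 13 lower and 0 higher for TRB against EV without T3, 18 lower with T3 and 1 lower for the interaction. The fit of the compared groups alone gave 2 higher for TRB against EV without T3. Leaving out each library in turn gave 14 to 19 higher and 1 to 5 lower for T3 in TRB cells, 2 to 6 and 0 to 2 in EV cells, 0 to 1 and 6 to 10 for TRB against EV without T3, 2 to 6 and 8 to 14 with T3, and 7 to 11 higher for the interaction. The values that changed sign had not passed the test: PSME3 with T3 in EV cells (0.0055 with no filter, -0.0322 to 0.0072 with a library left out); TRB against EV with T3 for PSME2 (-0.0071 with GC offsets) and PSMB9 (-0.0608 to 0.0679 with a library left out); and the interaction for PSMB5 (-0.0069 thinned, -0.021 with GC offsets, -0.0311 to 0.0826 with a library left out), PSME4 (-0.021 thinned, -0.0307 to 0.0653), PSMB7 (-0.0465 to 0.0406) and PSMB6 (-0.0962 to 0.011). Deviations of same-numbered libraries from their group means had correlations of -0.143 to 0.112. Such deviations, from means of 3 libraries, also hold sampling noise, so these values do not settle whether the numbers pair the libraries. With the replicate block 18 members were higher and 4 lower for T3 in TRB cells, 6 and 1 in EV cells, 1 and 6 for TRB against EV without T3, 5 and 11 with T3, and 8 and 0 for the interaction. The EV vehicle libraries, with as few as 4241863 counts, limit the comparisons that use them, and PSMB10, at 7.23 to 16.4 CPM, has the least counts of the immunoproteasome genes.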
